A study of Homo sapiens with 40 samples.

Results

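CTCF peaks at the promoters of protein-coding genes that carried no peak of the active histone mark H3K27ac were described in EndoC-βH3 cells. A peak belonged to this group when it overlapped, by at least 1 bp, a window of 2 kb on either side of a protein-coding start site in GENCODE 44 and overlapped no peak of the H3K27ac table. The group held 3381 of the 51457 CTCF peaks, or 6.57%, and these peaks lay at the start sites of 3018 of 19702 protein-coding genes. More of the promoter CTCF peaks, 7680, overlapped the mark, so that 30.6% of the 11061 promoter CTCF peaks were without H3K27ac.

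EndoC-βH3 is a human pancreatic beta-cell line, labelled as WT, that carries a CreER recombinase and excisable immortalizing genes. Non-senescent cells were left without the drug, and senescent cells were treated for 3 weeks with 4-hydroxytamoxifen, which switches the recombinase on. CTCF and H3K27ac were each measured by chromatin immunoprecipitation and sequencing in 3 non-senescent and 3 senescent libraries of this single line. The values used here are peak positions in hg38 and the authors' mean normalized read count of each peak over the libraries of both states, which has no error of its own, so no value below compares the states peak by peak and no test was run. Intervals in parentheses after a share are 95% Wilson intervals over peaks, and they cover counting error alone, not the spread between libraries or the dependence between neighbouring peaks.

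CTCF is a zinc finger protein that binds a long, directional DNA motif, halts the cohesin complex and thereby anchors chromatin loops. At active promoters it is often found beside the transcription machinery. It is also well known from gene clusters such as the protocadherin and HOX loci, where its sites separate or join genes and enhancers. H3K27ac marks active promoters and enhancers, so a start site without it is usually, though not always, a silent or unused one.

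The label of the line was checked at its promoters. All 14 beta-cell markers, including INS (insulin), IAPP and PDX1, had an H3K27ac peak at a start site, and none of them had a member peak. The endothelial markers PECAM1, CDH5 and VWF and the fibroblast markers COL1A1, PDGFRB and DCN had no H3K27ac at any start site, and CTCF peaks without the mark lay at PECAM1, COL1A1 and DCN. Some markers of other pancreatic cells carried the mark, among them IRX2 and TTR of alpha cells, SST and HHEX of delta cells, CPA1 of acinar cells and KRT19 of duct cells, while GCG of alpha cells, PRSS1, PTF1A and CELA3A of acinar cells and CFTR and SOX9 of duct cells did not. Of the white blood cell markers CD68 carried it and PTPRC and CD3E did not, and of the liver cell markers APOB carried it and ALB did not.

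A score matrix of 20 bases was learned from the strongest CTCF peaks away from promoters and H3K27ac, starting from the core word CCANNAGNNGGC, and both strands of each peak were scanned. Its consensus was TNNCCACNAGGGGGCANNNN, with N where no base reached a share of 0.5. A peak was counted as holding a motif site when its best score reached 9.24 bits, a level reached by 10% of 48517 regions placed 10 kb from the peaks. The 5 highest-scoring sites of the group show the motif in nearly pure form. Each is printed along the motif's own direction with 5 flanking bases on either side, and capitals mark the 12 bases aligned to the core word.
CHST13: aactttggCCACCAGGTGGCagcatataag
DUSP13 and SAMD8: cccattggCCACCAGGGGGCagcctcaccc
AHNAK2: cagcatggCCACCAGGGGGCagcctcggca
SPOCK1: gcgcgcggCCACCAGGGGGCgccagagcct
PERM1: cctagcggCCACCAGAGGGCaccaggacac

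The scores of these sites ran from 26.0 to 26.3 bits, and their peaks had mean counts of 241 at AHNAK2, 255 at CHST13, 356 at PERM1, 429 at DUSP13 and SAMD8, and 466 at SPOCK1. The site at SPOCK1, a gene for an extracellular proteoglycan, lay 80 bp upstream of the start site on the strand of the gene. A near-perfect word did not by itself mark the strongest peaks, since all 5 lay below the 10 highest mean counts of the group.

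The 10 strongest members had mean counts from 899 to 1544, and each of them held a motif site. The highest was a peak of 7419 bp in an intron of HM13, a signal peptide peptidase gene, at chr20:31556528-31563946, with a mean count of 1544. The second, at chr2:231923818-231929131, covered the start site of NPPC, which encodes the C-type natriuretic peptide, and had a mean count of 1525. NPPC carried no H3K27ac at any start site, and the nearest H3K27ac peak lay 31419 bp away. Peaks at EFNA4 (an ephrin ligand), EPB41L1 (a cytoskeletal adaptor) and ANXA9 (an annexin) followed with 1175, 1118 and 1004. Those at EFNA4 and ANXA9 lay only 155 and 289 bp from an H3K27ac peak. The remaining 5 lay at S100A9 with 991, C15orf48 with 981, SPATA3 with 959, SCGB1C1 with 946 and PEAR1 with 899, all genes without H3K27ac at any start site. The site of SCGB1C1 is repeated with its flanks at SCGB1C2 on chromosome 17, a member with 760.1, so reads could have been placed at either. The sites at S100A9, SPATA3, SCGB1C1, ANXA9 and PEAR1 match the core word with no mismatch, and the sites of 6 of the 10 are shown.
HM13: gaaatcagCCGCCAGGGGGCactgagttcc
NPPC: actcaccgCCGCCAGGGGGCgccgcactaa
EFNA4: gccattgaCCACCAGATGGTggtagaaacc
ANXA9: caaaatggCCACAAGAGGGCgtcagcagcc
C15orf48: cagaatgtCCTGCAGGGGGCgcccgggagt
PEAR1: aagaggctCCAGCAGAGGGCagcagaaacc

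Strong and weak peaks were about equally common at promoters with and without the mark. The median mean count of the members was 57.2, with quartiles of 19.6 and 174, beside 57.9 (21.5 and 191) at promoters with H3K27ac and 60.1 (20.2 and 169.9) away from promoters and H3K27ac. Members had a median width of 846 bp, against 885 and 847 bp in those classes. Per kilobase of peak, the median mean count was 68.0 for members, 66.3 at promoters with H3K27ac and 70.7 away from promoters and H3K27ac. The sequence of the peaks differed more than their strength. Median GC content was 54.2% in members, 60.7% at promoters with H3K27ac and 43.2% away from promoters and the mark. The ratio of observed to expected CpG was 0.354, 0.724 and 0.216 in the same order. A peak was termed island-like when its GC content was at least 55% and that ratio at least 0.6, and 26.6% of members met this, beside 57.9% and 2.14%.

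Since GC content separates these classes, the other CTCF peaks were weighted to the GC distribution of the members in bins of 2 percentage points. Bins with at least 20 comparison peaks held 98.0% of the members for either class. After weighting, the peaks at promoters with H3K27ac had a median mean count of 62.2, against 56.6 for the members in the same bins. Peaks away from promoters and H3K27ac had 46.0 after weighting, against 60.5 for the members in the same bins. That second difference did not hold: with GC measured in the central 400 bp of each peak the weighted median rose to 63.7, above the 57.2 of all members, and with CpG ratio in place of GC content it was 62.8. The weighted medians therefore placed the members neither above nor below the other CTCF peaks.

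The motif share differed between the classes where the counts did not. The matrix was learned from the strongest peaks away from promoters and the mark, which are also counted in that class. The effect of this on its share was not tested. A site was found in 67.7% (66.1 to 69.3) of the members, in 51.1% (50.0 to 52.3) of CTCF peaks at promoters with H3K27ac and in 73.8% (73.3 to 74.3) of those away from promoters and the mark. The regions placed 10 kb away held one in 12.2%, 11.4% and 9.14%. After GC weighting the share was 50.9% at promoters with H3K27ac, against 67.9% of the members in the same bins, and 74.5% away from promoters and H3K27ac, against 68.3%. The core word with no mismatch was rarer but stood in the same order, at 23.0% of members, 14.9% and 26.5%. The methods describe a motif filter on CTCF peaks by a scan not repeated here, and whether the deposited table was made before or after it was not tested. The table does hold 304 peaks with a GC content under 15%, none of which had a site by this matrix. A peak without a site here is one whose best score stayed under this matrix's threshold.

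**Figure D1:**
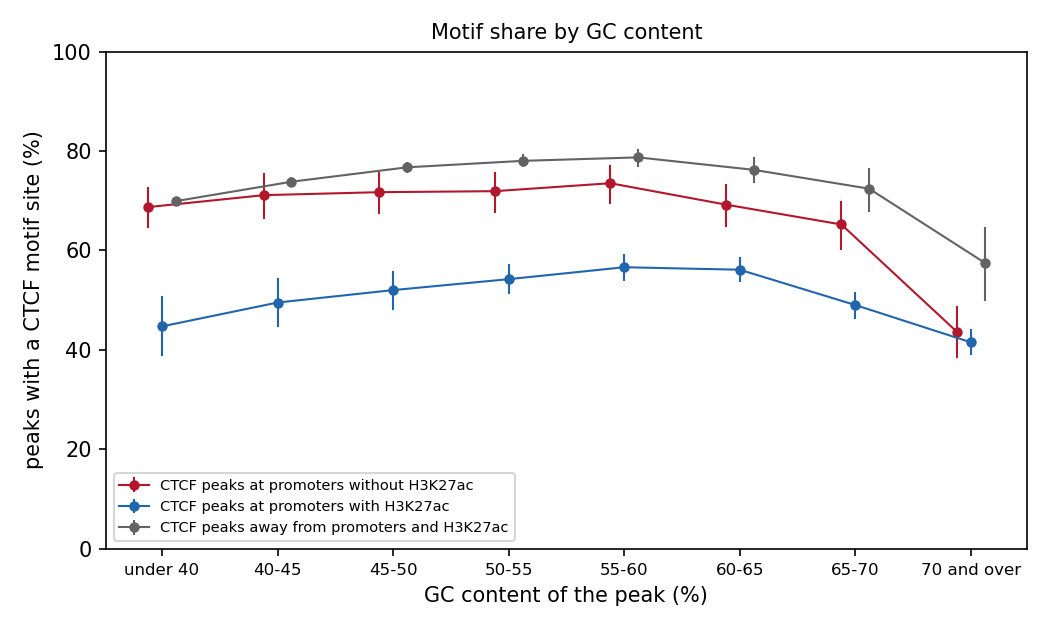
Share of CTCF peaks with a motif site (vertical axis, percent) in ranges of the GC content of the peak (horizontal axis, percent), for promoter peaks without H3K27ac (red), promoter peaks with H3K27ac (blue) and peaks away from both (grey); bars are 95% Wilson intervals over peaks. The red points stayed between 65.2% and 73.5% up to a GC content of 70% and above the blue ones, and fell to 43.6% in the most GC-rich range, where the red and blue intervals overlap.

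Within ranges of GC content the order was the same. Below 40% GC, 68.7% of the members had a site, beside 44.7% of the peaks at promoters with H3K27ac and 69.9% of those away from promoters and the mark. Between 55 and 60% GC the shares were 73.5%, 56.6% and 78.7%. At 70% GC and above, 335 members remained, of which 43.6% (38.4 to 48.9) had a site, beside 41.5% (38.9 to 44.1) at promoters with H3K27ac. In this most GC-rich range the median mean count was also low, at 21.1 for members and 27.4 at promoters with H3K27ac.

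The motif share rose with the strength of the peak. With the members cut at their quartiles of mean count, it was 41.0% in the lowest range, 58.9% in the second, 77.8% in the third and 93.1% in the highest. Median width rose over the same ranges, from 346 to 637, 1109 and 1725 bp, and a wider peak offers more positions to reach the threshold. The motif share by strength at equal width was not tested. Peaks at promoters with H3K27ac in the same ranges of mean count had a site in 20.8%, 38.3%, 57.3% and 84.3%. Those away from promoters and the mark had one in 48.3%, 68.7%, 84.8% and 92.2%, so the members lay below them in the first 3 ranges, while in the highest range the intervals of 91.2 to 94.7 for the members and 91.6 to 92.8 for those peaks overlapped. Members without a site, 1092 in all, had a median mean count of 22.2 and a median width of 514 bp, against 102 and 1101 bp for the 2289 with one.

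**Figure D2:**
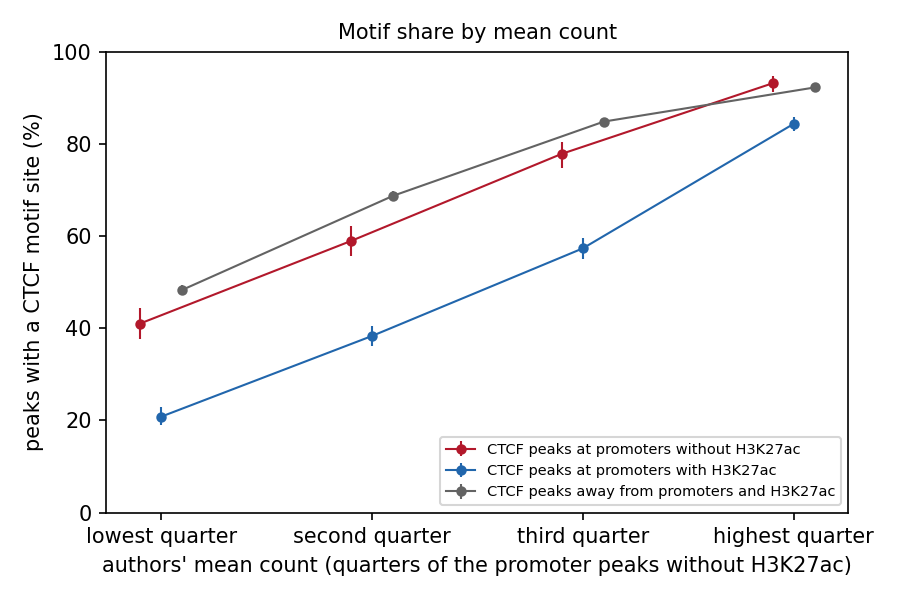
Share of CTCF peaks with a motif site (vertical axis, percent) in 4 ranges of the authors' mean count (horizontal axis), cut at the quartiles of the promoter peaks without H3K27ac (red), with promoter peaks with H3K27ac in blue, peaks away from both in grey and 95% Wilson intervals over peaks as bars. The red points rise from 41.0% to 93.1% and lie above the blue ones in each range, and below the grey ones in all but the highest.

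The members fell into 3 kinds by what lay around them. A total of 1779, or 52.6%, lay only at genes with no H3K27ac at any of their start sites. A further 881 lay at a start site without the mark in its window, while the gene carried H3K27ac at another start site. The other 721 lay in the window of a start site that did hold an H3K27ac peak, which the CTCF peak itself did not touch. Peaks of the first kind sat mostly at the main start site of their gene, as 79.2% of them lay in the window of the Ensembl canonical transcript, against 15.8% of the second kind and 64.5% of the third. Peaks of the second kind lay in introns in 73.9% of cases, peaks of the first kind in 41.6%.

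Members at genes without any H3K27ac were richer in CpG than the others. Their median GC content was 58.6% and 39.9% of them were island-like, against 50.6% and 13.3% at alternative start sites and 49.7% and 9.99% beside an H3K27ac peak. The median distance to the nearest H3K27ac peak was 34519 bp at genes without the mark, 12781 bp at alternative start sites and 614 bp beside the mark. A motif site was found in 66.5% (64.3 to 68.7), 75.0% (72.1 to 77.8) and 61.7% (58.1 to 65.2) of the 3 kinds. Median mean counts were 56.8, 67.4 and 48.5. The motif share followed the base composition within each kind: among genes without H3K27ac it was 53.3% of the 709 island-like peaks and 75.2% of the 1070 others, whose median mean counts were 37.0 and 84.0.

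Seen from the genes, CTCF was less frequent at promoters without the mark, and the gap was narrower where the sequence around the start site was island-like. Of the canonical start sites with H3K27ac within 2 kb, 53.9% had a CTCF peak in the same window, against 20.4% of those without it. Among start sites whose surrounding 1 kb was island-like the shares were 57.4% (56.4 to 58.3) and 40.7% (38.6 to 42.9), and among the others 40.9% and 12.6%. Start sites without H3K27ac that were CpG-poor, 5146 in all, were thus the ones most often left without CTCF.

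Motif sites were concentrated just upstream of the start site. Of the 2289 members with a site, 277 had it within 100 bp of the nearest protein-coding start site, and the density there was 138 sites per 100 bp of position, against 61.8 between 500 and 100 bp upstream and 38.8 between 500 bp and 1 kb downstream. The median distance was 1065 bp, and 56.2% of the sites lay upstream. For 460 of the sites the nearest start site was more than 2 kb away, in peaks that reached into the window. The direction of the motif changed with position. Within 100 bp of the start site, 62.5% (56.6 to 68.0) of the sites read along the strand of the gene, between 2 kb and 100 bp upstream 50.2% (46.8 to 53.6), and between 100 bp and 2 kb downstream 43.1% (39.5 to 46.7).

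The kinds of member were also taken singly, with no test of their differences. At genes without H3K27ac at any start site 67.6% (60.4 to 74.1) of 176 sites near the start read along the gene, and 37.6% (32.7 to 42.8) of 348 downstream sites did. At alternative start sites the shares were 55.7% (44.7 to 66.1) of 79 sites and 46.0% (39.8 to 52.4) of 237. In the bin from 100 to 50 bp upstream, at genes without H3K27ac, 56 sites read along the gene and 20 against it. CTCF peaks at promoters with H3K27ac showed the crowding and the change of direction at the same places, with 61.6% (58.4 to 64.6) near the start and 46.0% (43.3 to 48.7) downstream, and in the bin from 100 to 50 bp upstream 278 sites along the gene and 106 against it. The intervals near the start overlapped between these classes. Members beside an H3K27ac peak had 22 sites near the start, of which 10 read along the gene, or 45.5% with a wide interval (26.9 to 65.3).

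**Figure D3:**
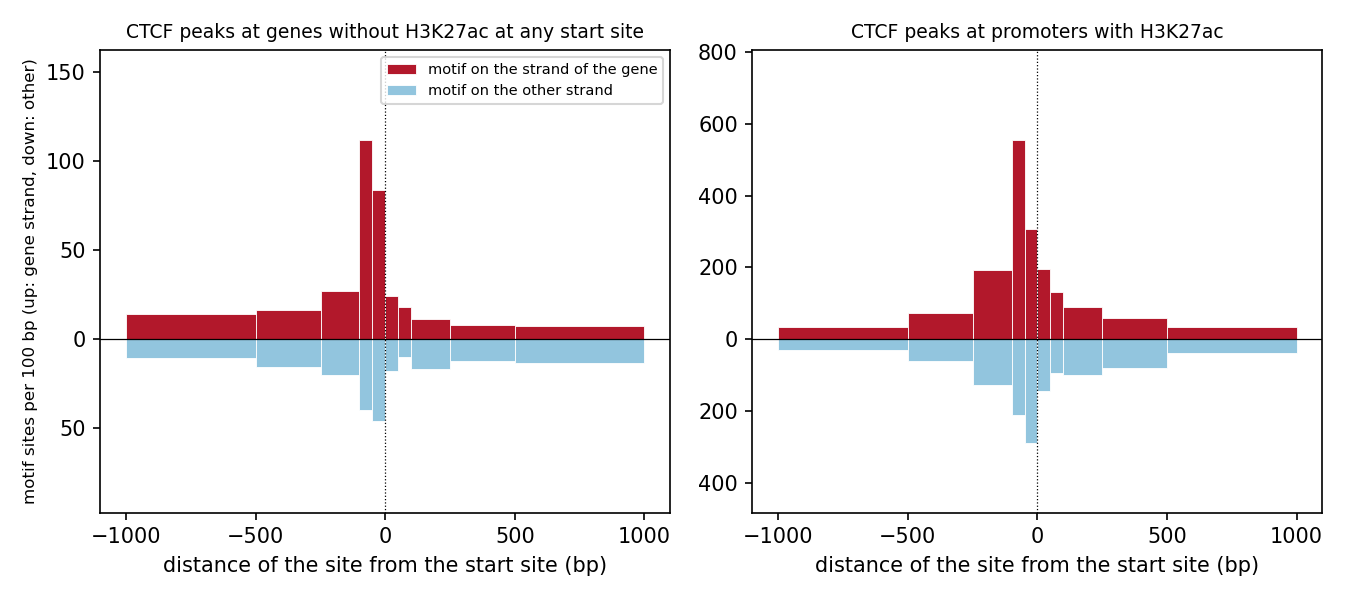
Motif sites per 100 bp (vertical axis) against their distance from the nearest protein-coding start site in bp along the gene (horizontal axis, negative upstream), with sites on the strand of the gene drawn upward in red and sites on the other strand downward in blue; left, CTCF peaks at genes without H3K27ac at any start site, right, CTCF peaks at promoters with H3K27ac. The 2 panels have different scales, and both have their highest red bar between 100 and 50 bp upstream, at 112 and 556 sites per 100 bp.

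SCN1A, a gene for a neuronal sodium channel, shows such a site in full. Its peak at chr2:166127151-166128743 had a mean count of 258, the gene had no H3K27ac at any start site, and the motif scored 20.5 bits on the strand of the gene. The RefSeq promoter of the gene (GRCh38.p14, chr2:166127971-166128270, minus strand, 250 bases before to 50 after the start) is printed with the bases aligned to the core word in capitals.
SCN1A promoter: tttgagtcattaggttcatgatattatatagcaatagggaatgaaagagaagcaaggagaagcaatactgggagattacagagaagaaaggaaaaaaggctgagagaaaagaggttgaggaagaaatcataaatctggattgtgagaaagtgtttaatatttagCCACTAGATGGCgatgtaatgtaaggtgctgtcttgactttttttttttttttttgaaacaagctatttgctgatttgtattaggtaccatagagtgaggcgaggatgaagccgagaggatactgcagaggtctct
The cancer-testis gene PRAME gives the opposite direction. Its peak was small, with a mean count of 33.4 over 556 bp, yet its motif scored 23.6 bits. The site lay 17 bp upstream of the nearest GENCODE start site, on the other strand. The capitals in the RefSeq promoter (chr22:22559216-22559515, minus strand) therefore read as the reverse complement of the word. This promoter rests on another start site, and the capitals stand at bases 206 to 217 of its 300.
PRAME promoter: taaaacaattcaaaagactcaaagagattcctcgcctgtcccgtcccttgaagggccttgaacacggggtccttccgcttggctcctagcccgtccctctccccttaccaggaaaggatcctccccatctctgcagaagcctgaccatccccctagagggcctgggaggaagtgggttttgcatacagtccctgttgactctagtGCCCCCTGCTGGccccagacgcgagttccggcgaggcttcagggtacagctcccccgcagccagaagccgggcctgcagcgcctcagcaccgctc
For scale, 10.4% of 35116 RefSeq promoters of this length held a motif site at the same threshold and 2.41% the core word with no mismatch.

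Gene families differed in how often they had such a peak. Over all protein-coding genes with a symbol of their own, 3015 of 19676, or 15.3%, had a member, and of the 6617 genes without H3K27ac at any start site 23.6% had one. The clustered protocadherins, cell-surface proteins that give neurons their identity, stood highest, with 22 of 53 genes or 41.5%. Cadherins with a CDH symbol had 9 of 23, genes with a KCN symbol 36 of 96, and collagens and laminins 21 of 56. The KCN class holds potassium channels and also channel-interacting proteins such as KCNIP2. HOX genes had 14 of 39, and glutamate and GABA receptors 16 of 46. With windows of 1 kb, in which fewer peaks can lie, HOX genes had 8 and glutamate and GABA receptors 10, and the receptors also had 10 with canonical start sites alone. Forkhead, SOX, GATA and T-box factors had 26 of 94. The class of homeobox factors of development had 32 of 124, or 20 with windows of 1 kb. Classes were matched by the start of the symbol, and the homeobox class takes in ISLR2, a gene of another family. Among the genes of a class without any H3K27ac, the share was 53.7% for protocadherins, 50.0% for the KCN class, 44.2% for collagens and laminins and 35.9% for HOX genes. These shares also depend on sequence. Of all canonical start sites without H3K27ac, 40.5% of the island-like ones had a member, against 12.3% of the others. Families, here and below, were not compared at equal base composition, so its part in their differences was not tested.

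Several other silent families had few or none. Of 391 olfactory receptor genes, 378 had no H3K27ac, but only 15, or 3.84%, had a member. Keratins and keratin-associated proteins had 8 of 149, cancer-testis genes 5 of 113, and bitter taste receptors and beta-defensins 0 of 24 and 0 of 40. Genes with UGT or CYP symbols lay between, with 59 of 78 without H3K27ac and 12, or 15.4%, with a member. The olfactory receptors, keratins and cancer-testis genes also had few CTCF promoter peaks of any kind, with 5.12% of olfactory receptors, 8.05% of keratins and 5.31% of cancer-testis genes against 47.6% of all genes. Families that mostly carried H3K27ac also had few members, although CTCF promoter peaks were common in them. By the rule, a CTCF promoter peak that is not a member overlaps H3K27ac. Zinc finger genes had a CTCF promoter peak in 41.4% and a member in 6.84%. Cytosolic ribosomal protein genes had a CTCF promoter peak in 57.3% and a member at 3 of 89 genes.

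**Figure D4:**
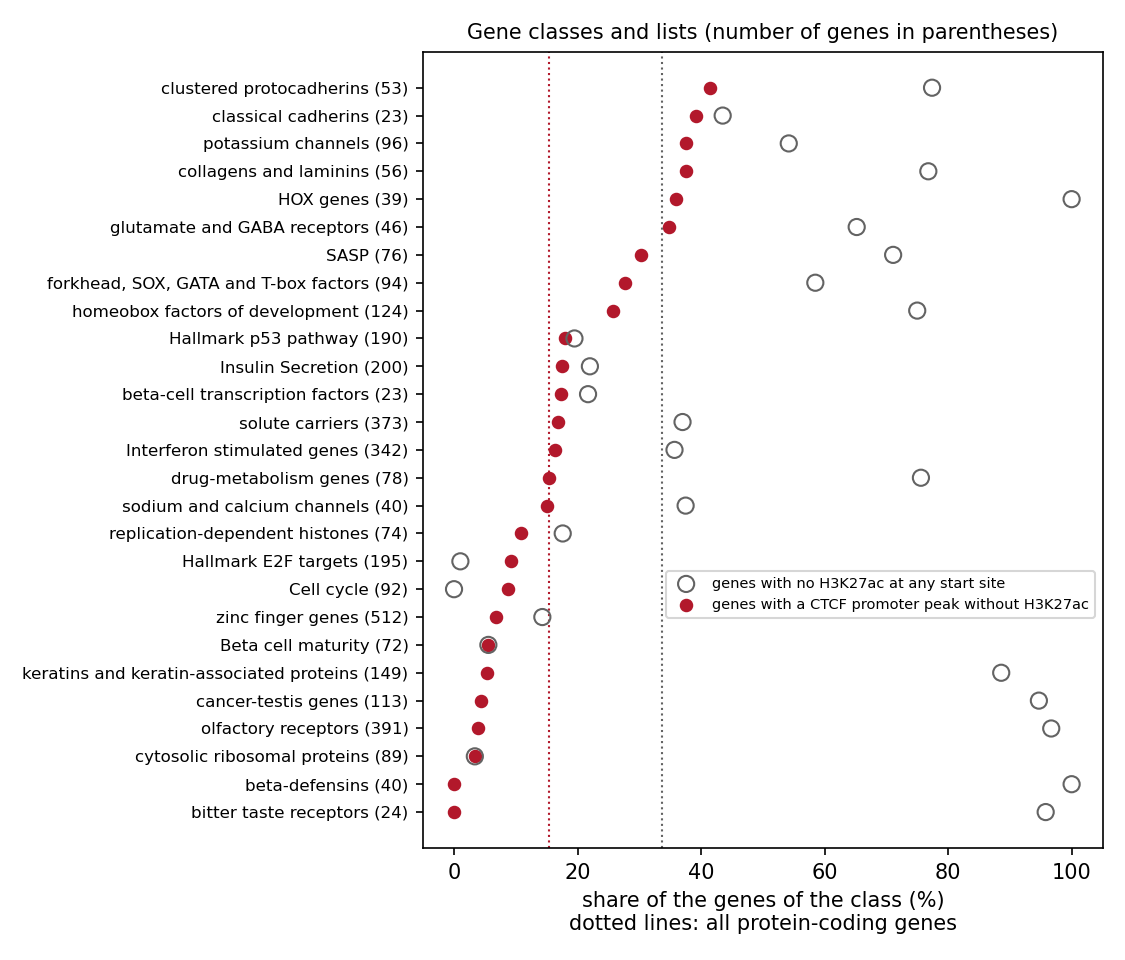
Share of the genes of each class or list (horizontal axis, percent) that had a CTCF promoter peak without H3K27ac (red points) and that had no H3K27ac at any start site (open circles), with the number of genes in parentheses and dotted lines at the values of all protein-coding genes, 15.3% and 33.6%. Red points run from 0 for beta-defensins and bitter taste receptors to 41.5% for clustered protocadherins, and classes with open circles near 100% are found at both ends. The classes labelled classical cadherins, potassium channels and drug-metabolism genes hold genes with CDH, KCN, and UGT or CYP symbols. The homeobox class also holds ISLR2.

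The strongest member of each class gave the following mean counts, and all of these lay at genes without H3K27ac unless stated. KCNJ9, an inward-rectifier potassium channel, had 729 and the vesicular glutamate transporter SLC17A7 752. The glutamate receptor gene GRIK4 had 576, the forkhead factor FOXC2 593, the homeobox factor DLX3 545 and the collagen gene COL14A1 451. The cytochrome P450 gene CYP4F8 had 389, the olfactory receptor OR2H2 331, the keratin-associated KRTAP5-2 271 and the histone gene H4C15 242. CDH23, with 216, and RPL6, with 168, carried H3K27ac at another start site or in the same window. The peaks at H4C15 and RPL6 held no motif site, with best scores of 7.4 and 5.5 bits. Of the 6 sites printed here, those of KCNJ9, SLC17A7, GRIK4 and DLX3 match the core word, and those of FOXC2 and OR2H2 depart from it.
KCNJ9: gcgatcagCCACCAGATGGCgccgaagaag
SLC17A7: cgccgtgtCCACCAGAGGGCgcaacctttc
GRIK4: cccgaatgCCACCAGGGGGCgccccttgct
FOXC2: aggagtatCCACAAGGTGTCagcaccttca
DLX3: tacaatcaCCACTAGATGGCgccactcccc
OR2H2: atatttggCCGGTAGATGACaccaaggtcc
OR2H2, with 14.2 bits, had the lowest score of these 6 and DLX3 and KCNJ9, with 22.5 and 22.6 bits, the highest.

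The strongest zinc finger member was of another sort. The peak at ZNF430, at chr19:21019333-21020092, had a mean count of 854 over 760 bp with a GC content of 1.05% and no motif site, and it lay 135 bp from an H3K27ac peak. Across the table, 304 CTCF peaks had a GC content under 15%, none of them held a motif site, and 9 were members, with mean counts from 16.4 to 854. The part of read placement in AT repeats in these counts was not tested.

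All 22 protocadherin peaks lay at genes without H3K27ac, in the gene cluster of chromosome 5, where each variable exon has a promoter of its own. Mean counts ran from 6.8 at PCDHGA2 to 165 at PCDHGB5, with 130 at PCDHB13, 73.7 at PCDHGA11 and 59.1 at PCDHGB4, and a median of 23.0. Only 8 of the 22 held a motif site. These 8 belonged to the alpha and beta groups and all of them read along the strand of the gene.
PCDHA1: tacattggCCACATGATGTCgctgtacacc
PCDHA5: cgcggtttCCGCTAGAGGGCgcgtcggatt
PCDHA9: ctcggtttCCACTAGAGGGCgcgtccgatg
PCDHA13: ctcgatttCCACTAGATGGCgcatccgatg
PCDHB7: tccacaaaACGCAAGGTGGCgctgctggct
PCDHB9: gttggaagCCACAAGGTGGCgctgcagact
PCDHB10: ggtggaggCCACACGGTGGCgctgcaggct
PCDHB14: acatggagACACATGGTGGCgctacaggat

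The alpha and beta sites differed in place. The sites of PCDHA5, PCDHA9 and PCDHA13 lay 599, 577 and 463 bp downstream of the start site, in near-identical sequence, while those of PCDHB7, PCDHB9, PCDHB10 and PCDHB14 lay 66, 75, 42 and 68 bp upstream. The site of PCDHA1 lay 38 bp upstream. None of the 10 gamma members reached the threshold, although PCDHGB5 at the top of the group was one of them, with a best score of -3.5 bits, and PCDHGA11 and PCDHGB2, both at 9.2 bits, fell just short of it. The exons of this cluster are close copies of each other, so reads from one may have been placed at another and single mean counts are uncertain.

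All 39 HOX genes were without H3K27ac, and 14 of them had members, in 14 peaks from 5.91 to 338. The strongest lay upstream of HOXD12 with 338 and upstream of HOXD8 with 269, then at HOXC5 with 128 and HOXB6 with 76.1. The other 10 had 41.1 or less. A site was found in 8 of the 14, among them the 4 strongest.
HOXD12: cccaatgcCCAGGAGATGGCgagcgcgctc
HOXD8: gcatttggCCACTAGAGAGCgctgttgctc
HOXC5: ccacatagGCACCAGGTGTCgctgtgggct
HOXB6: ccgaacggACGGTAGATGGCagcagaccgc
HOXA10: cgcagccgCCACGAGATGGCgcacttccga
The nearest H3K27ac peak was at least 79538 bp from each of the 14, and the peak at HOXA10, with a mean count of 30.5, lay 313085 bp from one.

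**Figure D5:**
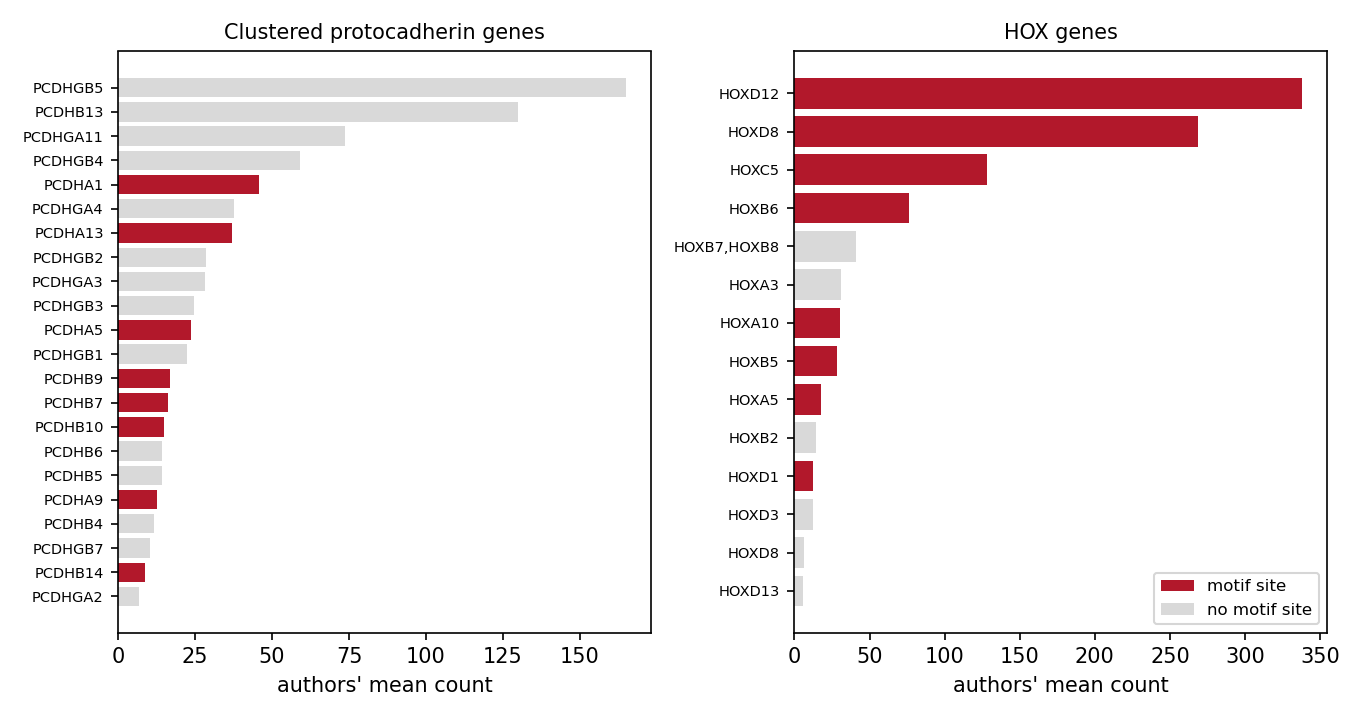
Authors' mean count (horizontal axis) of each CTCF peak without H3K27ac at a clustered protocadherin gene (left) and at a HOX gene (right), in red where the peak holds a motif site and grey where it does not; there is 1 value per peak and no error. The 4 highest protocadherin bars, from 59.1 to 165, are grey, and the 4 highest HOX bars, from 76.1 to 338, are red.

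Beta-cell maturity genes rarely had such a peak, while the transcription factors of the beta cell had one about as often as other genes. Of 72 beta-cell maturity genes of the study, 4 had a member, or 5.56%, against 15.3% of all protein-coding genes, with 68 of the 72 carrying H3K27ac. TCF7L2, a transcription factor of the Wnt pathway, had a peak with a mean count of 400.5 at an alternative start site, and CDKN1C, a cell-cycle inhibitor in an imprinted region, had 341 in a peak 736 bp from H3K27ac. GCG (glucagon), the hormone of alpha cells, was the single one of the 4 without H3K27ac, with a mean count of 282. The peak at an alternative start site of SLC2A2, the glucose transporter GLUT2, was weak, with 10.7.

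Of 23 transcription factors of the beta cell and its development, 5 had no H3K27ac at any start site and 4, or 17.4%, had a member, near the 15.3% of all genes. These 4 were SOX9 with a mean count of 233, FOXA1 with 161, GATA6 with 16.4 and PTF1A with 11.4. SOX9 and PTF1A, which act in pancreatic progenitors and in duct or acinar cells, and FOXA1 had no H3K27ac at any start site. GATA6 had the mark 753 bp away. The sites of SOX9 and FOXA1 scored 9.7 and 12.3 bits, and those of the 3 maturity genes shown with them from 9.4 bits at GCG to 21.7 bits at CDKN1C.
SOX9: gggagtggACACCAGGAGGCccctgcagaa
FOXA1: ctctaaaaCCGCTGGGTGGCgctagtgcga
GCG: gcactctaCCAGCAGAGGGGgtgaaagagc
TCF7L2: cgcgggctCCACTGGAGGGCagcacccgcc
CDKN1C: ccatctggCCAGCAGAGGGCgcagaaggac

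Among the lists tied to senescence, proliferation and secretion, those of the cell cycle lay below the 15.3% of all genes and 1 list of secreted proteins above it. Nearly all genes of the cell cycle lists carried H3K27ac, and a CTCF promoter peak that overlaps the mark is not a member. Over all genes, 1455 of the 13065 with H3K27ac at a start site had a member. The cell cycle lists were not tested against these marked genes. Of 92 cell cycle genes and 195 Hallmark E2F targets, 0 and 2 were without the mark at every start site, and 8 and 18 had a member, 8.7% and 9.23%. With canonical start sites alone these counts fell to 4 and 5, or 4.35% and 2.56%, beside 9.67% of all genes. TACC3, a spindle protein in both lists, had the strongest of them at an alternative start site, with a mean count of 371. Of 76 genes of the senescence-associated secretory phenotype (SASP), secreted signalling proteins, 54 had no H3K27ac and 23, or 30.3%, had a member. The strongest lay at the chemokine gene CCL1, with a mean count of 556 and the nearest H3K27ac peak 125361 bp away. Counted over all their genes, the other 3 lists lay near the share of all genes, although they differed in how many genes were without H3K27ac. Interferon stimulated genes had a member in 56 of 342, or 16.4%, with 122 of them without H3K27ac and C15orf48 strongest. Hallmark p53 pathway genes had one in 34 of 190, or 17.9%, with 37 without H3K27ac and DGKA, a lipid kinase, strongest at 327. Insulin secretion genes had one in 35 of 200, or 17.5%, with 44 without H3K27ac. Counted over genes without any H3K27ac alone, these lists and SASP all lay above the 23.6% of all such genes. The share with a member was then 43.2% for the p53 pathway, 38.6% for insulin secretion, 33.3% for SASP and 29.5% for interferon stimulated genes. These differences were not tested.

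A few peaks spanned several genes. Of the 3381 members, 164 lay in the windows of more than 1 gene. The one covering IFITM1 and IFITM2, antiviral membrane proteins, had a mean count of 317, the one covering BOLA2 and SLX1B 99.2 and the one covering F8, F8A1 and H2AB1 61.9. The last 2 lie in duplicated sequence, so reads could have been placed at either copy. The printed length of the site at IFITM1 is also repeated base for base in the member at IFITM3, so the same may hold there. Conversely, 450 genes had at least 2 members, up to 6 at ESPN, the gene of an actin-bundling protein.

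None of the members lay in an enhancer listed for non-senescent or for senescent cells, which follows from the rule, since those lists rest on H3K27ac. Within 10 kb of an enhancer of non-senescent cells lay 296 members, or 8.75%, and within 10 kb of one of senescent cells 285, or 8.43%. Of these, 218 were near enhancers of both lists, 78 near non-senescent ones alone and 67 near senescent ones alone. The shares for CTCF peaks at promoters with H3K27ac were 18.7% and 17.4%, and for those away from promoters and the mark 9.98% and 8.81%. Members at genes without any H3K27ac were farthest, with 3.99% and 3.77%, and those beside an H3K27ac peak nearest, with 18.3% and 17.5%.

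No member overlapped a region of the deposited Rb list, which holds 2435 regions bound in senescent over non-senescent cells. A count of 0 of 3381 allows a share of up to 0.0887%. CTCF peaks at promoters with H3K27ac overlapped it in 85 cases, or 1.11%, and peaks away from promoters and the mark in 38, or 0.117%. The list itself leaned to marked promoters, since 270 of its 282 regions at promoters overlapped an H3K27ac peak and 12 did not.

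The members were spread over all chromosomes analysed, with their share of the CTCF peaks highest on chromosome 19, at 12.9%, and 17, at 10.2%, and lowest on chromosome 21, at 3.79%. Per 100 protein-coding genes the range was narrower and the order different, with 15.6 on chromosome 19, 21.6 on chromosome 20 and 11.0 on chromosome 21. The limits of the rule did not cut through a gap in the data. The 224 members that ended 1800 to 2000 bp from a start site had a median mean count of 59.0 and a motif share of 72.8%, and the 206 peaks just outside, at 2000 to 2200 bp, had 53.1 and 70.9%. The last peak inside, at MBNL2, had a mean count of 380.2 and the first outside, at HES7, 68.1. At the other limit, the 142 members within 200 bp of an H3K27ac peak had a median mean count of 29.8, and the 136 promoter peaks that overlapped one by at most 200 bp had 29.7.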

How the data were processed

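According to the methods, reads were trimmed (Trim Galore) and aligned by the authors to hg38 (Bowtie2), and peaks were found against input with MACS2 for CTCF and HOMER for H3K27ac. The way replicates were merged is not given in the sources used here. The authors then compared read counts per peak between states with DESeq2. From the deposited tables, peak positions and the authors' mean signal (counts divided by size factors, averaged over libraries) were used. The fold changes, their errors, test values and p-values in the same tables are the authors' own comparison and were not used. The deposited enhancer and Rb lists hold positions alone. Library depth is unknown from these values.

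Python 3.11.15, numpy, pandas and pysam were used. Positions were read as 0-based and printed 1-based. The motif matrix came from 4129 sites in the 5000 strongest peaks away from promoters and H3K27ac. Motif scanning, GC weighting and overlaps were tested on simulated data. Gene classes were taken by symbol, and lists from the study's supplement, of which 9 symbols did not match. Some classes therefore take in genes outside the family they are named for. RPS19BP1 and similar names, which are not ribosomal proteins, were left out of the ribosomal class after its values had been seen. The split of members by kind of start site, the limits for island-like sequence, the group of lowest GC and the bins of position and orientation were also chosen after the data had been seen. Some marker genes are not reported here by name. Named genes were the 10 highest mean counts, the highest in each class or list, all members of the beta-cell maturity and transcription factor lists, the 5 highest motif scores, the 3 with most genes and those at the 2 kb limit. Members and lists were chosen with earlier results of these data known. Alternatives changed the window, start sites, exclusion, count filter, motif and GC matching.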

Additional observations from a re-analysis of the deposited data

How the results depend on the processing

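With the start sites of Ensembl canonical transcripts alone, 2013 peaks remained, their median mean count was 51.9, 63.4% held a motif site and 77.5% lay at genes without H3K27ac at any of these start sites. That last share was 61.4% with windows of 1 kb on either side and 62.2% when no H3K27ac peak was allowed within 1 kb. With a mean count of at least 20, the median mean count was 104, the median width 1117 bp and the motif share 76.9%. The motif share was 59.3% at the threshold held by 5% of shifted regions, 70.3% in the central 400 bp and 23.0% for the core word with no mismatch. Numbers of members under the other windows and filters stayed within 1.5 times of 3381.

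Among GC-weighted peaks at promoters with H3K27ac, the median mean count was 59.4 with GC of the central 400 bp, 52.1 with CpG ratio in bins of 0.1 and 106 with a mean count of at least 20, and the motif share was 53.6% with CpG ratio and 59.7% with that count. Among those away from promoters and H3K27ac, the median was 63.7, 62.8 and 96.1 in the same order, and the motif share 73.7% in bins of 5 percentage points, 76.4% with central GC, 69.5% with CpG ratio and 83.9% with that count. In each of these settings the motif share of the members stayed above the first class and below the second. The direction of the median mean count against either class turned with the setting. The cause was not tested.

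Of 28 classes and lists, all genes included, the number of genes with a member stayed within 1.5 times in 20 with 1 kb windows and in 19 with canonical start sites. With canonical start sites Hallmark E2F targets fell from 18 to 5, cell cycle genes from 8 to 4, beta-cell maturity genes from 4 to 2 and zinc finger genes from 35 to 16, and all genes from 3015 to 1902. With 1 kb windows olfactory receptors fell from 15 to 6, keratins from 8 to 3, and sodium and calcium channels from 6 to 2. Counts of 0 in enhancers and Rb regions were the same when at least 50% of the peak had to lie inside. The depth of single libraries is not analysed here, so a peak with a low mean count cannot be told from one present in few libraries.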
